A study of Mus musculus with 32 samples.

Results

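A set of 10 genes of the primitive endoderm was followed through 32 RNA-seq libraries of E14 mouse embryonic stem cells: Dab2, Gata4, Gata6, Sox17, Sox7, Foxa2, Pdgfra, Sparc, Amn and Cubn. They were taken by name out of 17440 genes listed in at least 1 of 5 separately normalised tables. The genes were chosen by their normalised counts with a hairpin against Chd4 and with a control hairpin, so their levels in that comparison are a description and carry no test. In all of these cells CTCF or RAD21 carried a degron (AID), which marks the tagged protein for destruction when an auxin is added. CTCF AID cells received a control hairpin or a hairpin against Chd4, with no auxin named. CTCF AID cells were also treated with 500 µM indole-3-acetic acid (IAA) for 0, 12 or 24 h, and, in a serum condition, for 0 or 12 h. RAD21 AID cells were treated with 1 µM 5-Ph-IAA for 0, 12 or 24 h. In a last set, CTCF AID cells overexpressed a control, CTCF of wild type or CTCF carrying a mutation, without IAA or with it (12 h where a time is labelled). Each of the 16 groups had 2 libraries, and nothing in the labels says that they came from separate cultures, so p-values measure only the spread between these libraries.

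The labels limit what some groups can stand for. The mutation in CTCF is not named, and 1 hairpin per target is labelled. For mutated CTCF without IAA the treatment label names IAA, and for wild-type CTCF with IAA it names none, so the groups follow the titles. A serum-free medium is given for all libraries, with CHIR99021 and the MEK inhibitor PD0325901, also for the 4 labelled as serum. Chd4 itself was at 9923 and 9526 normalised counts with the control hairpin and at 3379 and 3729 with its own hairpin, a remaining level of 36.5%. Library totals lay between 15364584 and 19642332 normalised counts.

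The primitive endoderm is the extraembryonic layer that segregates from the pluripotent epiblast in the blastocyst and later forms the visceral and parietal endoderm of the yolk sacs. Its fate is set by signalling of fibroblast growth factor (FGF) through ERK, which raises the transcription factor GATA6 where NANOG falls, and is carried on by GATA4, SOX17 and SOX7. Embryonic stem cells correspond to the epiblast and hold these genes low, and blocking MEK keeps them so. CHD4 is the remodelling ATPase of the NuRD complex, which removes histone acetylation at many genes of these cells.

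The genes play different parts in that layer. GATA6, GATA4, SOX17, SOX7 and FOXA2 are transcription factors, PDGFRA is the receptor tyrosine kinase used to mark the lineage, SPARC is a secreted matrix protein of parietal endoderm, DAB2 is an endocytic adaptor, and AMN and CUBN form the apical uptake receptor cubam of visceral endoderm. Of these, 9 were listed with the hairpins, 7 in serum, 6 after loss of RAD21, 6 in the overexpression set and 4 after loss of CTCF. Dab2, Gata4, Pdgfra and Sparc were listed in all 5 tables, and Foxa2 in the overexpression table alone. In the hairpin table, all 10 markers of naive pluripotency and all 5 of the core pluripotency network that were looked for were listed.

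The stretch of 250 bases before the first transcription start in RefSeq (GRCm38.p6) is shown for Dab2, Pdgfra and Amn, because these are the 3 tested genes at least 2-fold apart with the Chd4 hairpin that have such a RefSeq window. Of the 10 genes, 6 had such a window. Capitals mark matches to short words on either strand: for GATA factors AGATAA or AGATAG or TGATAA or TGATAG, and for CTCF AGGGGGC or AGGTGGC or AGAGGGC or AGATGGC, or a reverse complement. These words do not overlap one another in the windows shown. The windows are chr15:6299539-6299788 on the plus strand for Dab2, chr5:75152001-75152250 on the plus strand for Pdgfra and chr12:111270846-111271095 on the plus strand for Amn.
Dab2: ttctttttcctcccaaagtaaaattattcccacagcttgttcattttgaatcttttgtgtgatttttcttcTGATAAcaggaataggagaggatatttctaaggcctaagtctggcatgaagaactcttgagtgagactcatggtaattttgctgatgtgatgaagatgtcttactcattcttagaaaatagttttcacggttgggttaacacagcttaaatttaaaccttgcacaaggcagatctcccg
Pdgfra: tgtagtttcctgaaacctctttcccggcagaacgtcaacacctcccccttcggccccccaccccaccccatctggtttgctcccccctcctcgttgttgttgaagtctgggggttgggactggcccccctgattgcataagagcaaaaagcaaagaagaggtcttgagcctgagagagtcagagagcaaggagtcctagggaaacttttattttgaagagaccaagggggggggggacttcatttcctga
Amn: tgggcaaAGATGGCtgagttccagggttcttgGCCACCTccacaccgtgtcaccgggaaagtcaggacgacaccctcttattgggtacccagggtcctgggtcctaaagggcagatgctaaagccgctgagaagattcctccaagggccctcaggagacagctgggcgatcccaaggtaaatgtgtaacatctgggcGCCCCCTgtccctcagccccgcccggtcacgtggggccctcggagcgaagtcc
The Dab2 window holds a TGATAA beginning 179 bases before the start, and such a GATA word occurs in 26.5% of all 32851 RefSeq windows. Amn holds 3 matches to the CTCF words, which begin 243, 218 and 53 bases before its start, and 23.6% of all windows hold at least 1. The Pdgfra window holds neither kind. None of the 3 holds the SOX word ACAAT (27.7% of windows) or the FOX words TGTTTAC and TGTTTGC (7.29%). The windows also differ in base composition: the Dab2 window is 36.8% G or C with 2 CG dinucleotides, that of Pdgfra 54.4% with 4 and that of Amn 61.2% with 11, where the median window has 52.4% and 6. Dab2 also has a later RefSeq start, and the window before that start differs from the one shown. It has 17 CG dinucleotides, a larger share of G or C than the median window, and none of the GATA, CTCF, SOX or FOX words. Which start of Dab2 was used in these cells was not tested. A match is a run of letters and not a measured site.

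With the Chd4 hairpin the 10 genes did not move as a block: the receptor, the endocytic genes and 2 of the transcription factors were higher, and 2 other transcription factors were lower. Of 8 genes with a mean of at least 10, 6 had both hairpin libraries above both control libraries and 2 had both below, where 42.5% and 41.9% of all 15499 genes tested did so. At a difference of at least 2-fold the counts were 5 and 2, against 18.1% and 11.5% of all genes. limma called 67.4% of all genes in this comparison, and these shares are printed for scale only, since the comparison chose the genes.

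Dab2 (ENSMUSG00000022150.16, chr15:6299788-6440712, plus strand) had the largest difference. It was at 1.74 and 1.82 normalised counts in the control libraries and at 613 and 620 with the Chd4 hairpin. Both control libraries were at a floor, and the hairpin libraries were close to each other. The log2 difference was 7.79, measured as everywhere on the log2(value + 1) scale, and it ranked as the 5th highest among 15499 genes. Because the control level is so low, the size depends on the added constant and ran from 6.52 to 8.08 over all processing alternatives. Exons of the pseudogene Gm18888 overlap Dab2 on the opposite strand.

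Pdgfra (ENSMUSG00000029231.15, chr5:75152292-75198215, plus strand) was at 31.1 and 41.4 normalised counts in the control and at 236 and 192 with the hairpin. All control libraries were low and all hairpin libraries high, with a log2 difference of 2.54 (SE 0.22). Gata6, the factor that starts the lineage, was at 9.71 and 17.0 in the control and at 76.0 and 102 with the hairpin. Its groups did not overlap, and the log2 difference was 2.68 (SE 0.35). Exons of 1010001N08Rik on the opposite strand overlap Gata6, and strand use in counting is not stated, so its value is uncertain to that extent. The same holds for Dab2, and for Sox17, Pdgfra and Cubn, which overlap Gm37587, Gm42802 with Gm42803, and Gm13270.

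Sox7 (ENSMUSG00000063060.6, chr14:63943673-63950732, plus strand) was nearly absent in the control, at 1.12 and 0, and stood at 26.7 and 16.5 with the hairpin. Both hairpin libraries were higher, and the size again rests on a floor, with log2 differences from 2.09 to 4.58 over the alternatives around a value of 3.92. Amn (ENSMUSG00000021278.7, chr12:111271095-111276426, plus strand) was at 12.4 and 6.59 in the control and at 39.8 and 41.1 with the hairpin. The groups were apart, with a log2 difference of 2.04 (SE 0.38), which was 1.20 with quantile normalisation. Its partner Cubn was at 3.75 and 0 against 7.71 and 7.60, under the minimum mean of 10, so both parts of cubam lay higher but Cubn stayed barely detected. Sparc (chr11:55394500-55423183, minus strand), already abundant at 2396 and 2500, was at 3202 and 3245, a log2 difference of 0.40 (SE 0.05).

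Gata4 and Sox17 went the other way. Gata4 (ENSMUSG00000021944.15, chr14:63198922-63271692, minus strand), the factor that acts beside and after GATA6, was at 40.1 and 42.9 in the control and at 8.34 and 8.93 with the hairpin. Both hairpin libraries were lower, with a log2 difference of -2.14 (SE 0.31), which ran from -1.77 to -4.01 over the processing alternatives. Sox17 (ENSMUSG00000025902.13, chr1:4490931-4497354, minus strand), needed for the maturation of the layer, was at 17.8 and 16.0 against 4.17 and 3.19, a log2 difference of -1.94 (SE 0.42) that ran from -1.34 to -3.43. Thus Gata6 and Sox7 stood high where Gata4 and Sox17 stood low, so 1 member of each factor family was found on each side. In bulk RNA a change in the number of cells of a type and a change in RNA per cell cannot be told apart.

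**Figure D1:**
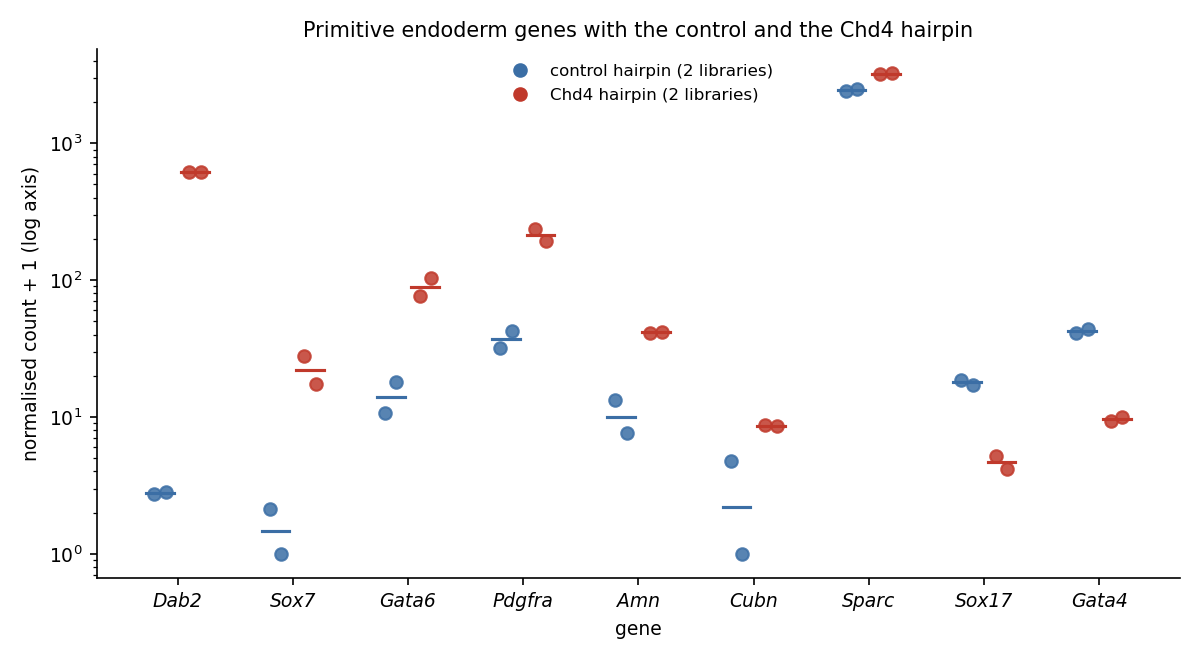
Normalised count plus 1 on a log axis for the 9 listed genes, with 1 point per library and a bar at the geometric mean of the 2 libraries (blue, control hairpin; red, Chd4 hairpin). Dab2 goes from 1.74 and 1.82 to 613 and 620, while Gata4 and Sox17 are the genes whose hairpin libraries lie below the controls.

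Per kilobase of exon, a scale on which genes can be compared, the order of the genes changed with the hairpin. Sparc led in every group. In the control libraries Gata4 followed, at a mean of 10.6 normalised counts per kilobase, then Amn at 5.15, Pdgfra at 3.62 and Sox17 at 3.54. The libraries of Amn (6.72 and 3.57) and Pdgfra (3.11 and 4.13) overlapped each other, so these neighbours do not differ beyond their spread, and those of Pdgfra and Sox17 (3.72 and 3.35) overlapped too. Dab2 stood at 0.243. With the Chd4 hairpin Dab2 was second at 84.0, ahead of Amn at 21.9 and Pdgfra at 21.4, whose libraries overlapped, and of Gata6 at 13.7, while Gata4 had gone down to 2.21.

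Gata4 and Sox7 lie 672 kilobases apart on 1 chromosome and differed in opposite directions. The tested genes on each side of every member were therefore read too, and those named here were chosen after their values were seen. Of 19 nearest tested neighbours, limma called 4 higher, 4 lower and left 11 uncalled at an adjusted p under 0.05, a smaller share called than the 67.4% of all genes. Both neighbours of Gata4 fell. Neil2, a DNA glycosylase gene 5.07 kilobases away, was at 270 ± 11.4 normalised counts in the control and 132 ± 1.88 with the hairpin (SD, n = 2), and the difference on the log2 scale was -1.02 ± 0.13 (SE, limma adjusted p 0.000410). Fam167a was at 285 ± 7.38 and 69.1 ± 11.9, and the difference on the log2 scale was -2.04 ± 0.17 (SE, limma adjusted p 7.40e-05). The 4 called higher were Pax1 beside Foxa2 (3.38), Fat2 (3.03) and Atox1 (0.35) beside Sparc, and Msra beside Sox7 (0.44). Around Dab2 neither Ptger4 (log2 difference -0.90, limma adjusted p 0.115) nor Gm7666 (-0.18, adjusted p 0.586) was called. Kit, a receptor tyrosine kinase gene beside Pdgfra, fell by 1.36 on the log2 scale, from 9197 ± 160 normalised counts to 3591 ± 89.2 (SE 0.04, limma adjusted p 2.86e-06), the opposite direction to Pdgfra.

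Other genes of the lineage were then read from lists of known lineage genes, which were written with earlier results of these data known, so their counts are not independent evidence of a direction. Of 39 such genes in 4 lists (regulators, basement membrane, visceral and parietal endoderm), 29 were tested with the hairpins, and limma called 14 higher and 9 lower, beside 33.5% and 33.8% of all genes. Their median log2 difference was 0.44, against 0.01 over all genes. Parietal endoderm genes moved most: 6 of 7 tested rose and 1 fell, with a median of 2.18. Plat, tissue plasminogen activator, rose by 4.83 on the log2 scale, from 5.88 ± 5.13 normalised counts to 165 ± 10.2 (SE 0.53, limma adjusted p 0.000244). Pth1r, the receptor for parathyroid hormone related protein that drives parietal differentiation, went from 11.4 ± 3.41 to 177 ± 20.9 (3.87, SE 0.28, limma adjusted p 4.09e-05). Snai1 (2.29) and the keratin gene Krt19 (2.18) also rose.

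Visceral endoderm genes split. Of 6 tested, 3 rose and 2 fell, and Ttr, Apoa1, Apoa4, Bmp2 and Cer1 were not listed. Lrp2, which encodes megalin, the uptake receptor that works with cubam and DAB2, rose by 2.48 on the log2 scale, from 380 and 454 normalised counts to 2322 and 2327 (SE 0.09, limma adjusted p 4.04e-06). Its chaperone Lrpap1 rose as well, from 957 ± 22.7 to 2313 ± 115 (1.27, limma adjusted p 8.83e-06). Afp, the alpha-fetoprotein gene, named after its values were seen, was listed at 0 in both control libraries and at 35.8 and 33.5 with the hairpin. Apoe fell from 6595 ± 151 to 2001 ± 49.0 (-1.72, SE 0.05, limma adjusted p 1.88e-06), and Lefty1 fell by 0.63 on the log2 scale.

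The basement membrane list was divided evenly, with 4 of 10 genes higher and 4 lower. The collagen IV chains rose, Col4a1 from 129 ± 57.5 to 743 ± 31.9 (log2 difference 2.59) and Col4a2 from 54.4 ± 2.80 to 495 ± 53.0 (3.16, limma adjusted p 7.80e-06), together with the collagen chaperone Serpinh1 (1.54) and the laminin chain Lamb1 (1.11). The laminin chains Lama1 (-0.83) and Lamc1 (-0.65) and the nidogen genes Nid1 (-0.91) and Nid2 (-0.16) fell. Among the regulators Cited1 (1.53) and Eomes (0.88) rose, and Klf5 (-0.53) and Sall4 (-0.40), which stem cells also express, fell, while Hnf4a and Hhex were not called.

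Genes of the upstream signal also went both ways. Of 10 FGF and ERK genes, 4 rose and 1 fell. Fgf4, the ligand made by epiblast cells, fell by 0.86 on the log2 scale, from 7238 ± 44.8 normalised counts to 3983 ± 32.2 (SE 0.04, limma adjusted p 8.09e-06). The receptor Fgfr1 rose by 0.82, from 1966 ± 317 to 3445 ± 51.3 (SE 0.10, limma adjusted p 0.000420). The ERK-responsive genes Etv4 (0.87) and Spry2 (0.35) rose, but Dusp4, Dusp6 and Etv5, of the same kind, were not called (log2 differences of -0.37, -0.24 and -0.09). Among relatives of the 10 genes, 4 of 12 tested rose and 1 fell: the PDGF ligand gene Pdgfc rose (1.48), Pdgfa was not called (-0.19, limma adjusted p 0.0824), and Gata2 fell from 97.2 ± 11.6 to 11.7 ± 2.16 (-2.96, SE 0.28, limma adjusted p 0.000123).

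**Figure D2:**
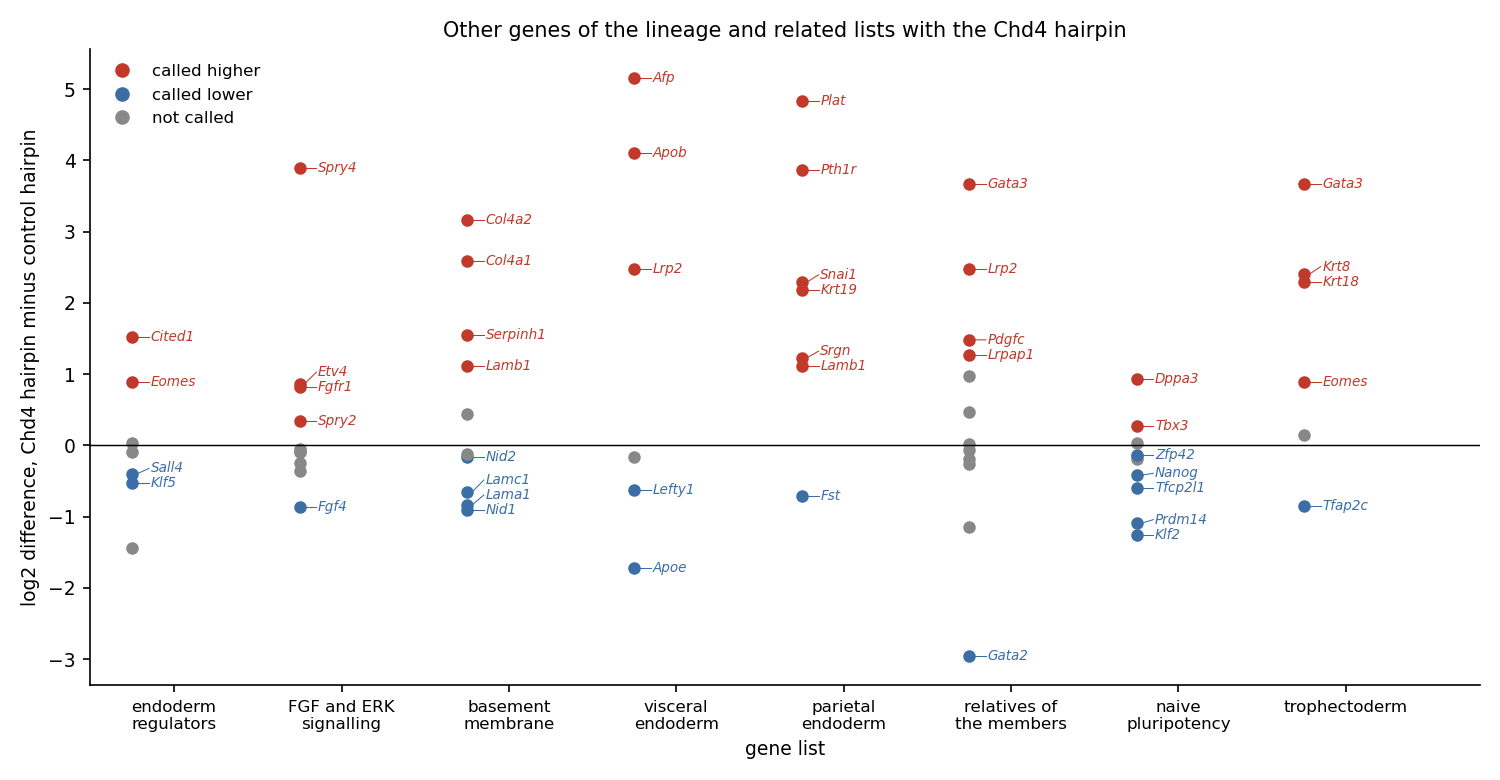
Log2 difference (Chd4 hairpin minus control hairpin) of each tested gene in 8 lists, with red for genes called higher by limma, blue for called lower and grey, without a name, for not called. Parietal endoderm genes lie mostly above 0 (median 2.18), while the other lists hold genes on both sides.

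Markers of other cell types moved in the same libraries. Of 6 trophectoderm genes tested, 4 rose and 1 fell (Krt8 by 2.40 and Krt18 by 2.30 upward, Tfap2c by 0.85 downward on the log2 scale), and the list summed to 1949 and 2004 normalised counts in the control libraries and 2352 and 2509 with the hairpin. Of the trophectoderm genes looked for, Cdx2, Elf5, Hand1 and Plac1 were not listed. Of 5 definitive endoderm and primitive streak genes tested, 2 rose and 1 fell (median log2 difference 0.81), with sums of 293 and 400 against 501 and 531. Of 5 neural genes 2 rose and 1 fell, with sums of 2526 and 2579 against 4078 and 4132. All 3 fibroblast genes tested rose, Col1a1 from 6.81 ± 4.62 to 176 ± 12.1, with sums of 291 and 359 against 644 and 700. Of 10 naive pluripotency genes 2 rose and 5 fell, and their sum went from 63086 and 64428 to 52465 and 52741. Of 5 core pluripotency genes 2 rose and 3 fell, with sums of 25994 and 26170 against 19100 and 19439. The primitive endoderm genes themselves, chosen by this comparison, summed to 2514 and 2625 against 4214 and 4236. Most of each sum was Sparc alone (2396 and 2500 against 3202 and 3245), and Gata4 and Sox17 were lower, so the sum does not describe each gene. The part of these markers in the values of the primitive endoderm genes was not tested.

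In the CTCF time course of 0, 12 and 24 h, only Sparc among these genes was called, and only at 24 h. Calls after IAA in serum and in the overexpression set are given further below. Of 3 tested, limma called none at 12 h, where 17.8% of all 13699 genes were called, none had an unadjusted p under 0.05, and no processing alternative called one. At 24 h it called Sparc, where 22.5% of all genes were called. Sparc went from 1806 and 1775 at 0 h to 1867 and 1927 at 12 h and 2132 and 2029 at 24 h. Both later groups lay above 0 h, with a log2 difference of 0.22 at 24 h (SE 0.05, limma adjusted p 0.0272), which was lost when either 0 h library or the first 24 h library was left out (adjusted p 0.0229 to 0.126 over all alternatives).

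Gata4 was at 36.8 and 32.6, then 39.9 and 39.9, then 27.8 and 24.7, highest at 12 h and lowest at 24 h without a call (limma adjusted p 0.664 and 0.340). Pdgfra was at 25.4 and 44.2, then 20.4 and 38.7, then 47.6 and 64.0, so that only the 24 h libraries lay above 0 h (log2 difference 0.70, SE 0.41, limma adjusted p 0.268). Dab2 was too low to test, from 1.5 to 15.8 over the 6 libraries. The other 6 genes are not listed in this table. The table breaks off inside its last line, and by identifier 113 to 165 genes follow that point in the other tables. None of the genes followed here is among them.

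Other lineage genes were called after loss of CTCF, with fewer calls at 12 h when a library was left out. Of 25 tested, 7 rose and 2 fell at 12 h (median log2 difference -0.042), where 9.39% of all genes rose and 8.4% fell. These 9 calls became 2 to 4 when any of the 4 libraries was left out. At 24 h, 8 rose and 3 fell (median 0.0014), against 11.7% and 10.8% of all genes. Snai1 rose from 24.0 and 17.5 to 56.5 and 53.5 and then 77.0 and 79.2. Among relatives of the 10 genes, the PDGF ligand gene Pdgfa rose from 593 and 583 to 1213 and 1226 at 12 h (1.05), and the PDGF receptor gene Pdgfrb fell from 206 and 217 to 68.7 and 83.5 (-1.47, limma adjusted p 0.00283).

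In the serum condition, in a table normalised on its own, 7 of the genes were listed. Dab2 was at 164 and 145 normalised counts and Cubn at 125 and 128 before any IAA, while Amn was not listed. Per kilobase, Dab2 (21.1) came second to Sparc there, ahead of Gata4 (12.8) and Cubn (8.45). After 12 h of IAA limma called 2 of 7 genes, both higher, where 17.0% of all 14494 genes were called. Gata4 went from 47.6 and 52.3 to 77.0 and 103, with no overlap (log2 difference 0.82, SE 0.21, limma adjusted p 0.0376). That call was lost when any of the 4 libraries was left out (adjusted p 0.0222 to 0.212 over the alternatives). Sparc went from 1508 and 1566 to 1965 and 1984, apart as well (0.36, SE 0.04, limma adjusted p 0.00187).

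Dab2 (230 and 154 after IAA), Gata6 (20.2 and 18.0, then 29.3 and 16.7), Sox7 (22.3 and 18.0, then 25.2 and 22.9) and Cubn (129 and 116 after IAA) were not called. Pdgfra was lower in both treated libraries (36.3 and 43.7, then 34.4 and 28.8), also without a call (log2 difference -0.33, limma adjusted p 0.416). Of 27 other lineage genes 5 rose and 6 fell (median log2 difference 0.13), against 7.73% and 9.25% of all genes. These 11 calls became 4 without the first treated library and 7 without the second. In the same libraries 8 of 10 naive pluripotency genes fell and none rose, with sums of 30533 and 30784 against 23037 and 23689, and their part in the rise of Gata4 was not tested.

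After loss of RAD21, the cohesin subunit, all 6 genes tested had both 12 h libraries above both 0 h libraries, where 30.1% of all 13738 genes did. Only Sparc was called, where 13.0% of all genes were. Sparc went from 3632 and 3836 to 4242 and 4229 at 12 h (log2 difference 0.18, SE 0.04, limma adjusted p 0.0250) and to 4492 and 4509 at 24 h (0.27, SE 0.04, limma adjusted p 0.00635). The libraries rose in order of time with no overlap between the groups. The 12 h call was lost without the first 0 h library or without either 12 h library (adjusted p 0.0201 to 0.155).

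Sox17 was at 8.71 and 9.77 at 0 h, 25.4 and 15.9 at 12 h and 17.9 and 15.7 at 24 h. Both later groups lay above 0 h, with a log2 difference of 1.04 at 12 h (SE 0.42, limma adjusted p 0.148). Gata6 was at 10.7 and 13.5, then 24.4 and 20.5, then 13.2 and 8.90, so that it was high at 12 h and overlapped the 0 h libraries at 24 h. For 24 h against 12 h, where 15.9% of all genes were called, its log2 difference was -0.98 (limma adjusted p 0.161), and no member was called or had an unadjusted p under 0.05. Dab2 was at 35.9 and 43.9, then 46.0 and 54.6, then 63.7 and 59.6, with a log2 difference of 0.62 at 24 h (limma adjusted p 0.138). Pdgfra (21.8 and 12.7, then 33.5 and 28.3, then 23.4 and 36.1) and Gata4 (46.9 and 31.4, then 54.9 and 55.9, then 57 and 35.2) were not called either. At 24 h 13.7% of all genes were called.

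Some matrix genes of the layer rose with RAD21 loss beside Sparc. Of 10 basement membrane genes, 3 were called higher at 12 h and 5 at 24 h, and none lower (medians 0.23 and 0.30), where 6.66% and 6.54% of all genes were called higher and 6.35% and 7.16% lower. Over the 4 lineage lists the calls were 4 at 12 h, and 1 to 3 when a library was left out, and 7 at 24 h, which became 3 without the first 0 h library or either 24 h library. The 12 h count was 2 without the first 0 h or the second 12 h library and 1 without the second 0 h library. Nid1 went from 14006 and 14152 to 18762 and 18624 at 12 h, Col4a1 from 74.9 and 78.3 to 144 and 244, and Lama1 from 1853 and 1981 to 2898 and 2818 at 24 h. Of 9 FGF and ERK genes tested, 4 were called higher and 1 lower at 12 h. Dusp4, a phosphatase gene induced by ERK, rose from 48.1 and 39.3 to 114 and 115 at 12 h (log2 difference 1.38, limma adjusted p 0.00700). The ligand gene Fgf4 fell from 5269 and 5312 to 4772 and 4698 (-0.16, limma adjusted p 0.0166). In the same libraries 5 of 10 naive pluripotency genes fell and 1 rose at 12 h, with sums of 71241 and 70193 at 0 h against 68102 and 68520, and 5 fell and 2 rose at 24 h. Fibroblast markers summed to 74.7 and 81.8 at 0 h and 98.9 and 114 at 12 h, with none called at 12 h. At 24 h they summed to 90.8 and 139, and 1 of 3 tested was called higher. Their part in the values of the 10 genes was not tested.

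**Figure D3:**
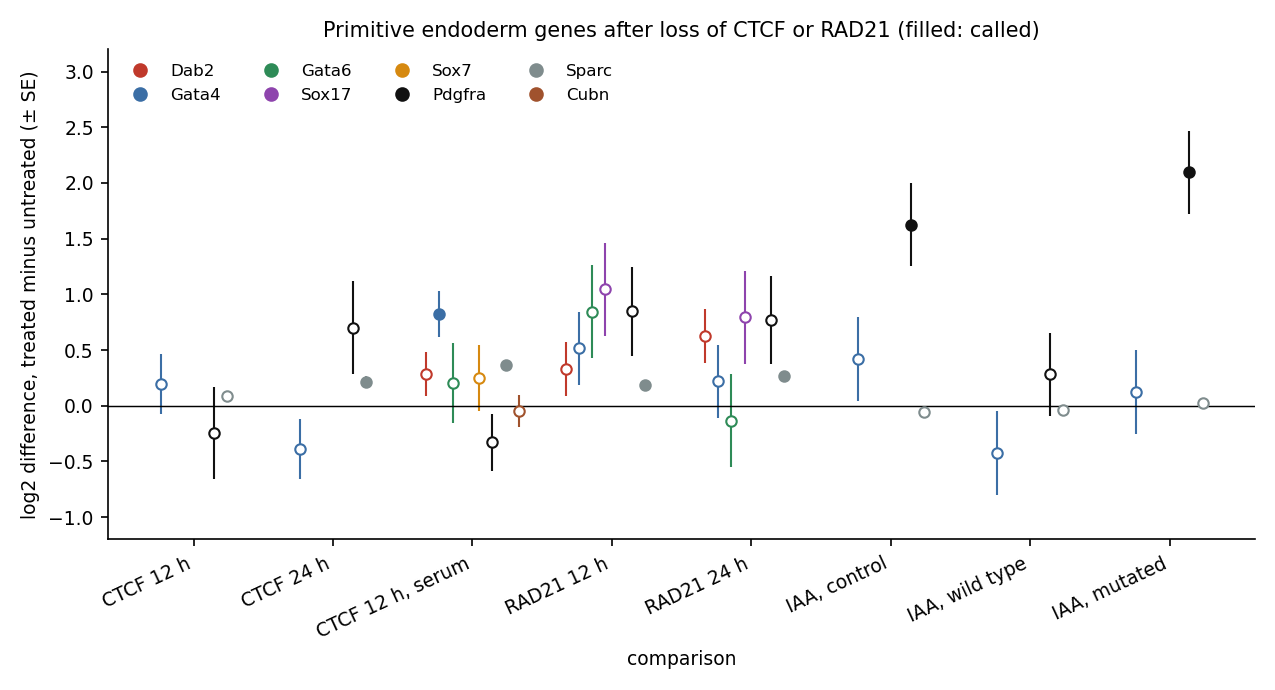
Log2 difference ± SE from limma for each tested gene in 8 comparisons of auxin-treated with untreated cells, with filled points for genes called at an adjusted p under 0.05. Filled points are Sparc in 4 comparisons (0.18 to 0.36), Gata4 in serum (0.82) and Pdgfra with IAA in the overexpression control (1.63) and with mutated CTCF (2.09).

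In the overexpression set, Pdgfra was the only member called. It was at 32.6 and 13.2 normalised counts in control cells and at 61.5 and 71.9 after IAA. With wild-type CTCF it was at 36.0 and 30.9, and at 50.4 and 32.9 after IAA. With mutated CTCF it was at 35.2 and 33.4, and at 130 and 172 after IAA. The 2 libraries of mutated CTCF with IAA were the highest of the 12, those of the control with IAA came next, and the groups with wild-type CTCF overlapped. Neural markers moved in the same libraries: of 3 tested, 2 rose with IAA in all 3 backgrounds. They summed to 2204 and 2272 in control cells and 3697 and 3579 after IAA, 1974 and 2026 with wild-type CTCF and 3213 and 3396 after IAA, and 2592 and 2693 with mutated CTCF and 3948 and 4121 after IAA. Their part in the values of Pdgfra was not tested.

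Limma called the IAA difference of Pdgfra in control cells (1.63, SE 0.37, adjusted p 0.00887), where 25.3% of all 13938 genes were called, and with mutated CTCF (2.09, SE 0.37, limma adjusted p 0.00335), where 16.2% were. The call with mutated CTCF held under all 12 alternatives, and that in control cells was lost without the second untreated library (1.01) or the second treated library (1.52, with adjusted p from 0.00141 to 0.0596 over the alternatives). With wild-type CTCF the difference was 0.28 (SE 0.37, limma adjusted p 0.642), where 21.4% of all genes were called. Mutated against wild-type CTCF with IAA gave 1.85 (SE 0.37, limma adjusted p 0.0320). This result was known before the genes were chosen, so its p is printed as a description and is no independent support. The IAA difference of 2.09 rests on the same mutated libraries with IAA, so it is not independent of that result. When any library of the 2 groups was left out, the 1.85 ran from 1.55 to 2.15 and its call was lost. In that comparison 2.25% of all genes were called.

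The difference between the IAA effects was tested directly. The effect with wild-type CTCF minus that in the control was -1.35 (SE 0.53, limma adjusted p 0.336, unadjusted p 0.0272), and that with mutated CTCF minus that in the control was 0.47 (SE 0.53, limma adjusted p 0.783). Neither was called, so a smaller effect with wild-type CTCF was not shown over all genes. Because the labels of the wild-type libraries with IAA and of the mutated libraries without it disagree with their titles, these values hold for the groups as titled.

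The other genes of the set gave no call or were too low. Sparc lay between 2675 and 3045 over the 12 libraries and Gata4 between 13.6 and 35.4, with no call in any of the comparisons of this table. Without IAA no member was called for wild-type CTCF against the control, where 0.897% of all genes were called and no member had an unadjusted p under 0.05. For mutated CTCF against the control, where 5.55% of all genes were called, Sparc had an unadjusted p under 0.05 (log2 difference -0.13, limma adjusted p 0.0600). Sparc also had an unadjusted p under 0.05 for mutated against wild-type CTCF with IAA (-0.11, limma adjusted p 0.170). The differences between IAA effects called 1.41% of all genes with wild-type and 1.64% with mutated CTCF. Dab2 (1.48 to 16.1), Gata6 (1.00 to 16.9) and Foxa2 (1.08 to 23.1), the last a pioneer factor of endoderm, had means under 10 and were not tested. Dab2 was nevertheless apart in control cells, at 3.48 and 5.75 without IAA against 12.3 and 12.2 with it, where 31.5% of all genes tested had both libraries above. With mutated CTCF it was apart as well, at 4.92 and 2.37 without IAA against 16.1 and 6.35 with it. With wild-type CTCF its libraries overlapped.

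Among the lineage's other genes Snai1 rose with IAA in control cells, from 29.0 and 17.7 to 78.4 and 93.9 (log2 difference 1.87), and with wild-type CTCF, from 30.1 and 32.6 to 64.3 and 63.4 (1.01). Fst, the follistatin gene, fell in all 3 backgrounds, from 217 and 252 to 64.1 and 51.7 in control cells. On the FGF side the receptors Fgfr1 and Fgfr2 rose in all 3 backgrounds (Fgfr2 from 101 and 73.2 to 249 and 268 in control cells), and Dusp6 fell in all 3 (from 274 and 247 to 84.0 and 119). In all, 6 of 24 lineage genes tested rose and 3 fell in control cells (median log2 difference 0.075), against 12.8% and 12.5% of all genes. With wild-type CTCF 5 rose and 4 fell (median -0.10), against 11.1% and 10.3%. With mutated CTCF 2 rose and 3 fell (median -0.042), against 8.31% and 7.92%.

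**Figure D4:**
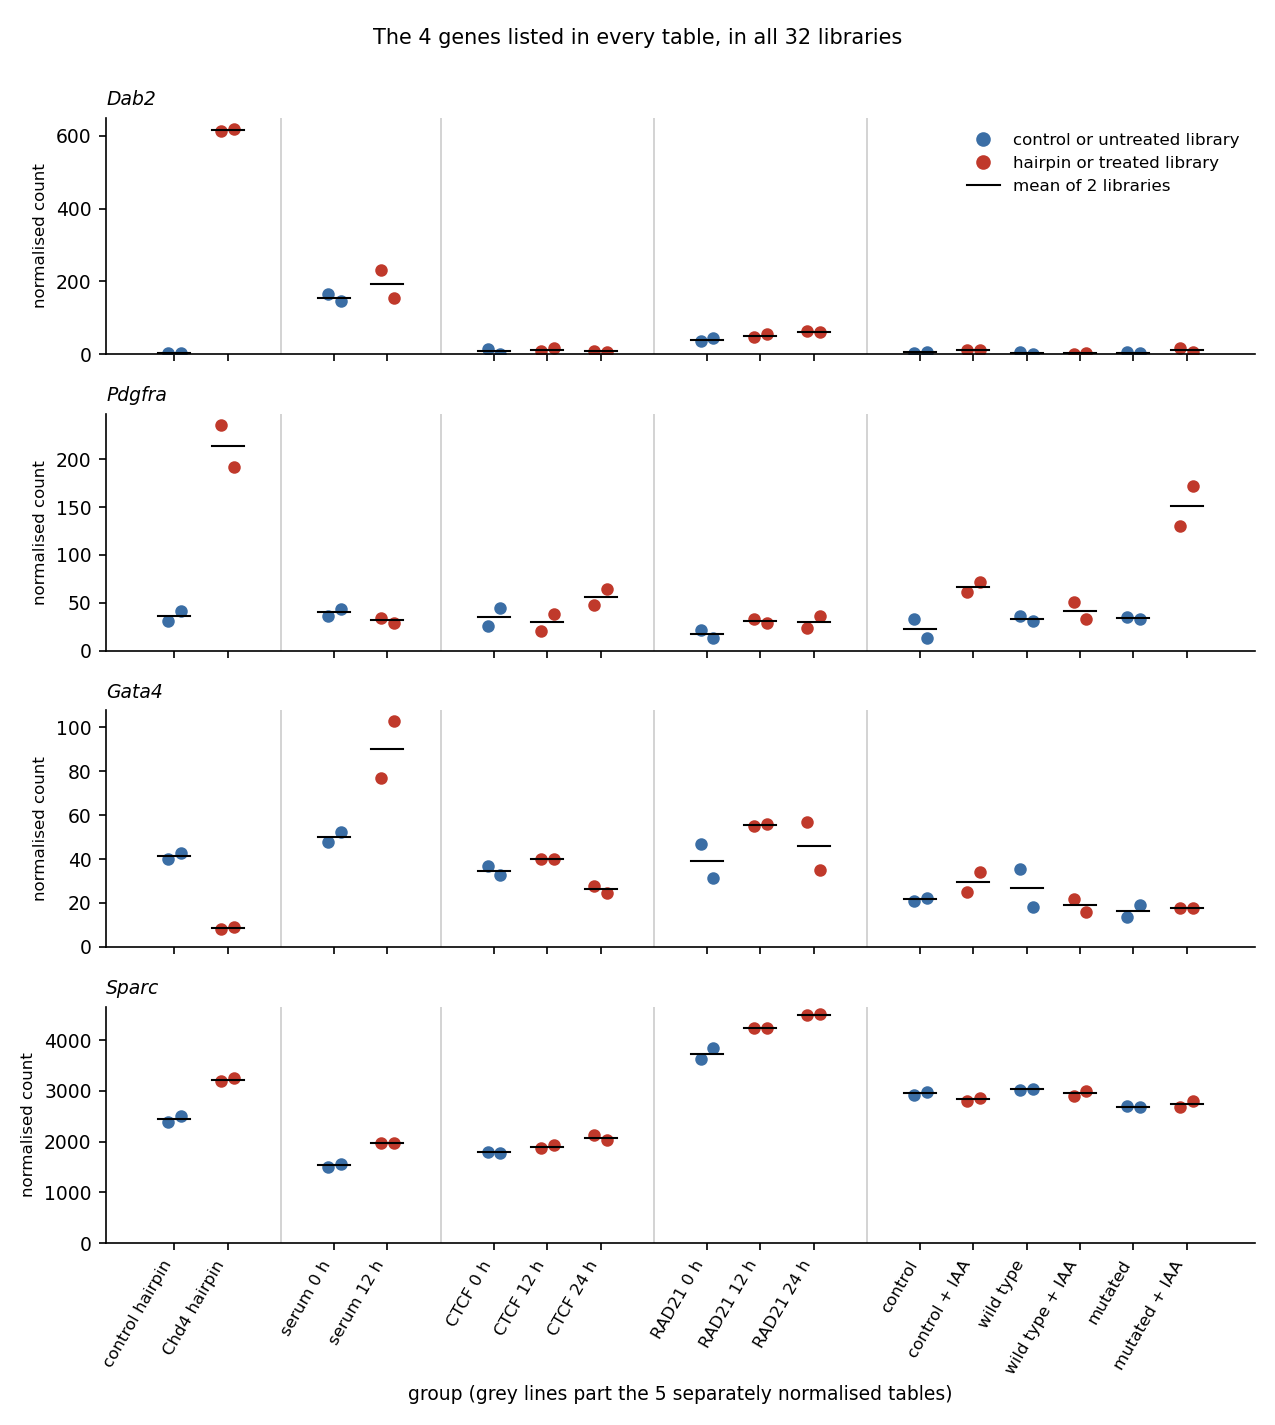
Normalised counts of Dab2, Pdgfra, Gata4 and Sparc in all 32 libraries, with 1 point per library and a bar at the mean of each group, where grey lines part the 5 separately normalised tables. Levels compare only between grey lines: in the hairpin table Dab2 is high with the Chd4 hairpin (613 and 620), and in the overexpression table Pdgfra is highest with mutated CTCF plus IAA (130 and 172).

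The 3 genes Gata4, Pdgfra and Sparc were tested in all 5 tables, so the genes most like them could be looked for. Likeness was Pearson's r of log2(value + 1) over the 32 libraries, each centred on its table's mean, among 12389 genes tested in all tables, and it is a description with no p because libraries share groups. For Gata4 the closest were Ormdl1 (r = 0.86), Vrk2 (0.85) and Washc3 (0.84), whose means were also lower with the Chd4 hairpin. The hairpin libraries enter into r, so these lower means are not a separate observation. For Pdgfra they were Htatip2 (0.87), Alox12 (0.84) and Pramef8 (0.84), and for Sparc Arhgef3 (0.81), Canx (0.78) and Gm364 (0.78). Among themselves the 3 genes were not close, with r of -0.47 for Gata4 and Pdgfra, -0.24 for Gata4 and Sparc and 0.29 for Pdgfra and Sparc.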

How the data were processed

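RNA-seq libraries of E14 cells were used as 5 tables of normalised counts, a signal that the authors deposited per group of samples. The submitters' processing notes name Trim Galore, Bowtie2, STAR, RSEM, DESeq2 and mm10, without role or order; the listing rule and strand use are not given in the sources used here. Values were not whole multiples of 1 step, so no count test was run. For genes with a mean of at least 10, limma 3.58.1 (R 4.3.3) took log2(value + 1), with all groups of a table in 1 fit and eBayes with a mean trend. A gene was called where p adjusted by Benjamini-Hochberg across the whole table was under 0.05. The code was tested on simulated data. Such differences understate changes of low genes. Tables were compared only within themselves. Replicate libraries correlated with r of 0.982 to 0.992. The members and gene lists were chosen with earlier results of these data known. From each list and comparison, the 4 called genes with the largest differences could be named if the higher group's mean reached 50. Not all of these are named, so those shown are a selection. Others named were chosen after their values were seen. In the lists, 1 gene is counted but not reported here. Positions are from GENCODE M21 (GRCm38), matched by identifier. Alternatives changed the added constant, filter, scaling, moderation, threshold, samples in the fit, library left out and block.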

Additional observations from a re-analysis of the deposited data

Results flagged for a closer look

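Pdgfra moved in opposite directions in 2 of the degradation experiments at 12 h, with no overlap between treated and untreated libraries in either. It was lower after IAA in CTCF AID cells in serum (log2 difference -0.33, from 36.3 and 43.7 to 34.4 and 28.8 normalised counts) and higher after 5-Ph-IAA in RAD21 AID cells (0.85, from 21.8 and 12.7 to 33.5 and 28.3). Neither difference was called by limma, the experiments differ in the protein degraded, the compound and the culture condition, and the difference between them was not tested. In the CTCF time course, Pdgfra overlapped its untreated libraries after 12 h of IAA (log2 difference -0.25, limma adjusted p 0.728). After IAA in CTCF AID cells of the overexpression control, labelled 12 h, it was higher and called (1.63, limma adjusted p 0.00887). The difference between these sets was not tested either.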

How the results depend on the processing

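Each group has 2 libraries, so leaving 1 out assumes that the remaining one varies like the other groups. The differences of the 8 genes tested with the Chd4 hairpin kept their direction under every alternative run. The number of other lineage genes called there was 23, and 14 when a log2 difference of at least 1 was also asked; leaving out a library gave 20 to 24. In other comparisons that number moved more when a library was left out, from 9 to between 2 and 4 for CTCF at 12 h, from 11 to between 4 and 11 in serum, from 4 to between 1 and 3 for RAD21 at 12 h and from 7 to between 3 and 6 for RAD21 at 24 h. For the 10 genes themselves, the number called fell to 0 with robust moderation without a mean trend for CTCF at 24 h, RAD21 at 12 h and 24 h, CTCF in serum, and mutated against wild-type CTCF, and to 0 with the added demand of a log2 difference of at least 1 for CTCF at 24 h, RAD21 at 12 h and 24 h, and CTCF in serum. With a minimum mean of 100 it was 1 in serum, 0 for IAA in control cells and with mutated CTCF, and 0 for mutated against wild-type CTCF, since Gata4 and Pdgfra are then not tested, and 1 (Sparc) for mutated CTCF against control without IAA, as with quantile normalisation (1). Leaving out 1 library gave 0 to 1 called genes for CTCF at 24 h, RAD21 at 12 h and IAA in control cells, 1 in serum, and 0 for mutated against wild-type CTCF. Directions that turned when 1 library was left out belonged to uncalled differences, given here as lowest to highest. They were Pdgfra after CTCF loss at 12 h (-0.69 to 0.20), and after RAD21 loss at 24 h Gata4 (-0.12 to 0.56) and Gata6 (-0.39 to 0.13). For RAD21 at 24 h against 12 h they were Gata4 (-0.64 to 0.041), Sox17 (-0.57 to 0.072) and Pdgfra (-0.38 to 0.22). In serum they were Dab2 (-0.0020 to 0.57), Gata6 (-0.18 to 0.59) and Cubn (-0.12 to 0.027). For IAA they were Gata4 (-0.89 to 0.030) and Pdgfra (-0.019 to 0.58) with wild-type CTCF, and Gata4 (-0.11 to 0.35) and Sparc (-0.0058 to 0.056) with mutated CTCF. Gata4 turned for wild-type CTCF against control (-0.23 to 0.69) and for mutated against wild-type CTCF (-0.29 to 0.15), and so did the differences between IAA effects of Sparc with wild-type CTCF (-0.0040 to 0.048) and of Pdgfra with mutated CTCF (-0.15 to 1.09). The cause of these changes was not tested. Same-numbered libraries did not deviate together (r from -0.06 to 0.10), so the numbers pair nothing; with a replicate block the hairpin count was 25 and the number called among the 10 genes was the same in every other comparison. Depth per library is not known, and members with means under 10 could not be tested.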
